A study of Mus musculus with 32 samples.

Results

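Lrrc55, Gucy2d, Calcb and Ngfr are 4 mouse genes that were chosen by their RNA level, which was lower where doxycycline (dox) and trimethoprim (TMP) were present when the cells were collected. They are 4 of the 31053 genes in the deposited count files and 4 of the 15280 that passed the filter on low counts. Since groups with and without dox chose them, their values between such groups are given below as a description with no test, and the tests of the 4 genes are kept for groups that shared the same dox state. Day 0 against day 4 with dox and TMP is also given without a test, since the low values of day 4 helped choose the genes, and the tests that remain are not wholly free of the selection. The label held for Lrrc55, Gucy2d and Calcb on both days. It did not hold for Ngfr at day 0, where the gene was as high with dox and TMP as without, and it held for Ngfr at day 4.

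RNA was read by QuantSeq, which sequences the end of each transcript next to the poly(A) tail, in 32 libraries of mouse embryonic stem cells (ESCs) from the C1 line, 4 in each of 8 groups. C1 is a single line derived from β-catenin-/- ESCs by infection with a pair of lentiviruses. One carries the dox-dependent activator rtTA under the EF1a promoter, and the other a dox-responsive promoter in front of a fusion protein that joins mCherry to a conditional destabilizing domain and to constitutively active β-catenin; TMP stabilizes the fusion protein. Cells were sorted once, before day 0, so the day 4 groups descend from sorted cells, and the study's methods give a pre-culture in 2i/L for these libraries where the labels give serum with LIF.

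All 8 groups carry the β-catenin knockout and both lentiviral constructs. At day 0, C1 had received 10 μM TMP and no dox, and C1M and C1H had received 100 ng/mL dox with 10 μM TMP and were the middle and the high mCherry fractions of the sort. At day 4 of monolayer differentiation in serum-free medium, C1T had been kept in 10 μM TMP without dox, C1MV and C1HV were C1M and C1H cells from which both inducers had been withdrawn at day 0, and C1MDT and C1HDT were C1M and C1H cells kept in 100 ng/mL dox with 10 μM TMP. No group received dox without carrying the fusion, so dox itself and the fusion protein cannot be told apart here. C1MV and C1HV also differ from C1T in having no TMP.

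β-catenin is the transcriptional arm of the canonical Wnt pathway: when it escapes degradation it enters the nucleus, binds TCF/LEF factors and raises transcription of their target genes, and it also joins cadherins to the cytoskeleton at cell contacts. The genes described here are best known from neurons and the cells around them. Lrrc55 encodes an auxiliary subunit that shifts the voltage dependence of BK potassium channels, Gucy2d the receptor guanylyl cyclase of a small set of olfactory sensory neurons in the mouse, Calcb the precursor of the neuropeptide β-CGRP, and Ngfr a receptor that binds the neurotrophins together with Trk receptors.

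The genes lie at 4 separate places in the genome (GENCODE annotation, build GRCm38, the build also called mm10). Lrrc55 (ENSMUSG00000075224) is on the minus strand of chromosome 2 from 85162334 to 85197197. Gucy2d (ENSMUSG00000074003) and Calcb (ENSMUSG00000030666) are both on the plus strand of chromosome 7, from 98440416 to 98477479 and from 114718643 to 114723365. Ngfr (ENSMUSG00000000120) is on the minus strand of chromosome 11 from 95568818 to 95587735. All 4 are annotated as protein-coding.

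Promoter sequences are shown because the groups were set by a TCF/LEF coactivator and to compare the start regions of these genes. The 250 bases before the annotated start were taken from RefSeq (GRCm38.p6), where 3 of the 4 genes matched by symbol, and are written 5′ to 3′ in the direction of the gene, with every CG dinucleotide in capitals. They cover chr2:85198751-85199000 on the minus strand for Lrrc55, chr7:98440166-98440415 on the plus strand for Gucy2d and chr11:95587736-95587948 on the minus strand for Ngfr. The GENCODE gene of Ngfr starts upstream of its RefSeq start, so the last 37 of its 250 bases lie inside that gene; they were counted and searched but are not printed. The RefSeq start of Lrrc55 lies upstream of the GENCODE gene given above, so its window is the start of a longer transcript model.
Lrrc55: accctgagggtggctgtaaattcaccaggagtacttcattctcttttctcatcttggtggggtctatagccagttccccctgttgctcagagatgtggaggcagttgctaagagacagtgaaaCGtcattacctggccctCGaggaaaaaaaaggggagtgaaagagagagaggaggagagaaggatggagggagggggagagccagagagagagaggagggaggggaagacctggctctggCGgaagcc
Gucy2d: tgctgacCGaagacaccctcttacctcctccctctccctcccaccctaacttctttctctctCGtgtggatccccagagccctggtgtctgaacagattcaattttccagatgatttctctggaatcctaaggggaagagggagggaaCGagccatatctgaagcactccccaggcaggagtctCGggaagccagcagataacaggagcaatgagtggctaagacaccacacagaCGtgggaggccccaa
Ngfr: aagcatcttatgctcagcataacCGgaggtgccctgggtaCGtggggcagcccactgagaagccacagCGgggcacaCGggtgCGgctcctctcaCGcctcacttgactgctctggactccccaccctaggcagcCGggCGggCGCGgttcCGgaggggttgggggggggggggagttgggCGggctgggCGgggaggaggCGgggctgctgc
The Lrrc55 window held 3 CG dinucleotides, the Gucy2d window 5 and the Ngfr window 16, against a median of 6 and quartiles of 2 and 16 over the 32544 windows of the same length. GC content was 54.0%, 54.4% and 70.4% in the same order, with a median of 52.4% over all windows. The TCF/LEF core was searched on both strands in the form CTTTGAA, found in 4.47% of all windows, the form CTTTGAT, found in 3.21%, the form CTTTGTT, found in 5.02%, and the form CTTTGTA, found in 3.21%; the forms share their first 5 letters. None of the 3 windows held a match, and 14.9% of all windows held at least 1 form.

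Library depth and the state of the cells set what these levels can show. The libraries held 1366951 to 3648787 reads on genes (median 2402468), so that 3 counts, the floor used here, corresponded to 0.837 to 2.14 CPM (a gene's reads relative to all reads on genes in the library, scaled with TMM factors). The 16 libraries with dox and TMP held 42561402 reads on genes and the 16 without dox 33492950, so the groups in which the genes were low were the deeper ones. Ctnnb1, which was deleted in the line and returned in the fusion, read 5.19 to 11.0 CPM in C1, 9.45 to 17.7 in C1M and 34.9 to 48.7 in C1H. At day 4 it read 25.4 to 36.3 CPM over C1MDT and C1HDT and 4.13 to 12.4 over C1T, C1MV and C1HV. The summed level of 8 naive ESC marker genes was 3199 to 4259 CPM at day 0 and 323 to 799 CPM at day 4, and that of 6 post-implantation epiblast markers 98.1 to 156 and 680 to 1663 CPM, so the naive ESC markers were high at day 0 and lower at day 4. In these bulk libraries, fewer cells that express a gene and less of its RNA per cell cannot be told apart.

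Lrrc55, the BK channel subunit, was separated by dox state in every library. Its level in the replicates of C1 was 28.1, 13.0, 11.4 and 20.1 CPM. In C1M it was 1.27, 0.355, 2.28 and 1.24 CPM, and in C1H 1.70, 0.348, 0.366 and 3.36 CPM. The lowest C1 library was thus above the highest induced library of day 0, and C1M and C1H overlapped each other.

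At day 4, Lrrc55 read 14.9, 17.9, 14.8 and 15.7 CPM in C1T. With inducers kept on it was near absent, with 0, 0, 0 and 0.344 CPM in C1MDT and 0.340, 0, 0 and 0 CPM in C1HDT, which is 1 read in each group of 4 libraries. After withdrawal it stood at 16.1, 21.4, 25.1 and 26.4 CPM in C1MV and at 21.7, 39.8, 23.2 and 18.2 CPM in C1HV. Of the 8 libraries of withdrawn cells, whose parents had averaged 1.29 and 1.44 CPM at day 0, the one at 16.1 CPM lay within the range of C1T and the others above it. Over the series Lrrc55 had 31 reads in the 16 libraries with dox and TMP and 680 in the 16 without, with levels of 0 to 3.36 CPM against 11.4 to 39.8 CPM and no overlap. In order of mean level, C1HV (25.7 ± 9.61 CPM, SD, n = 4), C1MV (22.2 ± 4.60), C1 (18.2 ± 7.63) and C1T (15.8 ± 1.45) each overlapped the next, C1T did not overlap C1H (1.44 ± 1.43), and C1H overlapped C1M (1.29 ± 0.787). The lowest libraries of C1M and C1H held 1 read, as did the highest of C1MDT and C1HDT.

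**Figure D1:**
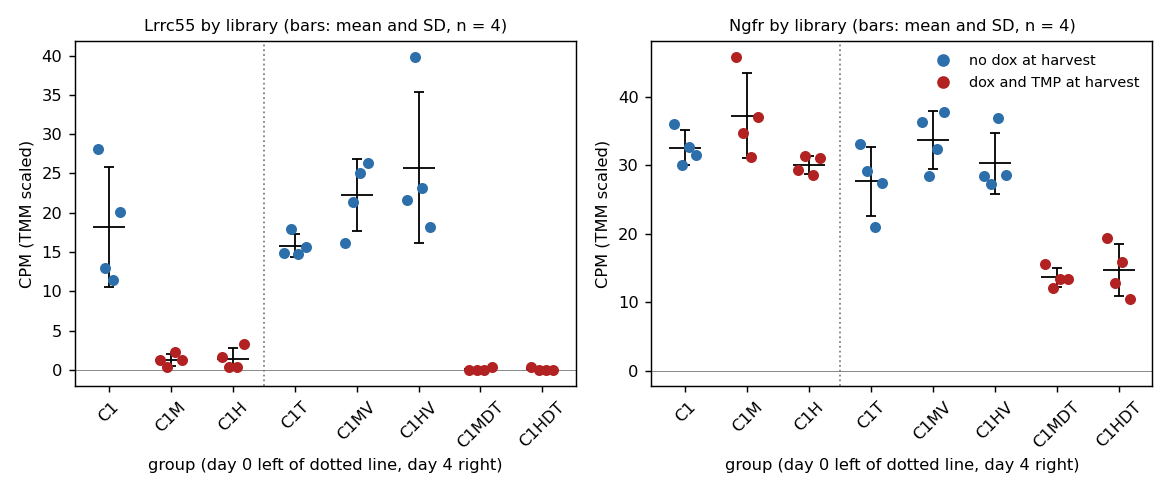
Level of Lrrc55 (left) and Ngfr (right) in CPM for each library, by group, with day 0 left of the dotted line and day 4 right of it; points are libraries, red where dox and TMP were present at harvest and blue where dox was absent, and bars give the mean and SD of 4. Lrrc55 lies between 0 and 3.36 CPM in every red group, while Ngfr is low in the red groups of day 4 alone.

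As a description of the contrasts that chose it, the summed reads of Lrrc55 per read on genes were 13.7-fold higher in C1 than in C1M (95% exact interval 7.95 to 25.7) and 13.0-fold higher than in C1H (7.63 to 23.8). The ratio was 241 between C1MV and C1MDT (42.8 to 9571) and 275 between C1HV and C1HDT (48.8 to 10919), with 1 read on the lower side each time. These intervals cover counting error only. No overlap in the lower direction was shared by 11.6% of tested genes in C1M against C1, by 12% in C1H against C1, by 7.13% in C1MDT against C1MV, by 7.1% in C1HDT against C1HV, and by 8.02% where both C1M and C1H lay below C1, as Lrrc55 and Calcb did. All libraries of all 4 induced groups lay below all libraries of the other 4 groups for 6 genes, or 0.0393% of those tested, and nothing is read from this for Lrrc55, which was chosen for it. The others included Crebrf, Enah, Serpina1e and Sntg1, named after their values were seen. Enah, for example, read 907 to 1202 CPM with dox and TMP and 1272 to 1579 CPM without.

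Gucy2d, the receptor guanylyl cyclase, had no read in any of the 16 libraries with dox and TMP, which allows at most 0.0705 CPM over these libraries pooled, by library size without TMM factors. In C1 its counts were 5, 0, 5 and 4 reads, and in C1T 11, 16, 0 and 6. After withdrawal it had 8, 4, 6 and 7 reads in C1MV and 4, 8, 7 and 0 in C1HV. The gene was thus seen in 13 of the 16 libraries without dox, 91 reads in all, and the 3 libraries at 0 belonged to C1, C1T and C1HV. Because of those 3 libraries, only C1MV lay wholly apart from the induced groups.

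In mean level C1T stood first for Gucy2d (3.96 ± 2.87 CPM, SD, n = 4), followed by C1MV (2.97 ± 1.52), C1HV (2.41 ± 1.90) and C1 (1.65 ± 1.14), and each overlapped the next. With 3 counts set over the group at 0, Gucy2d was at least 5.83-fold higher in C1 than in C1M and at least 5.90-fold higher than in C1H. It was at least 9.90-fold higher in C1MV than in C1MDT, at least 8.98-fold higher in C1HV than in C1HDT and at least 14.4-fold higher in C1T than in C1MDT. No fold can be given among the 4 induced groups, which were all at 0.

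Calcb, the precursor of β-CGRP, had the same division at counts as low. C1 held 10, 4, 5 and 5 reads. C1M held 0, 0, 1 and 0, and no library of C1H, C1MDT or C1HDT held any. C1T held 5, 0, 4 and 0 reads, C1MV 5, 3, 4 and 7, and C1HV 5, 1, 5 and 3. Calcb was therefore read in 14 of 16 libraries without dox (66 reads) and in 1 of 16 with dox and TMP (1 read), and the libraries at 0 without dox were both from C1T.

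The order of Calcb differed from that of Gucy2d, with C1 first (2.86 ± 0.899 CPM, SD, n = 4), then C1MV (2.40 ± 1.77), C1HV (1.81 ± 0.870) and C1T (1.08 ± 1.26), each overlapping the next. The ratio of summed reads was 29.99 between C1 and C1M (95% exact interval 4.89 to 1233), with 1 read on the lower side. Calcb was at least 10.1-fold higher in C1 than in C1H, at least 7.52-fold higher in C1MV than in C1MDT, at least 6.62-fold higher in C1HV than in C1HDT, at least 3.93-fold higher in C1T than in C1MDT and at least 3.76-fold higher in C1T than in C1HDT. C1T had 9 reads of the gene.

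**Figure D2:**
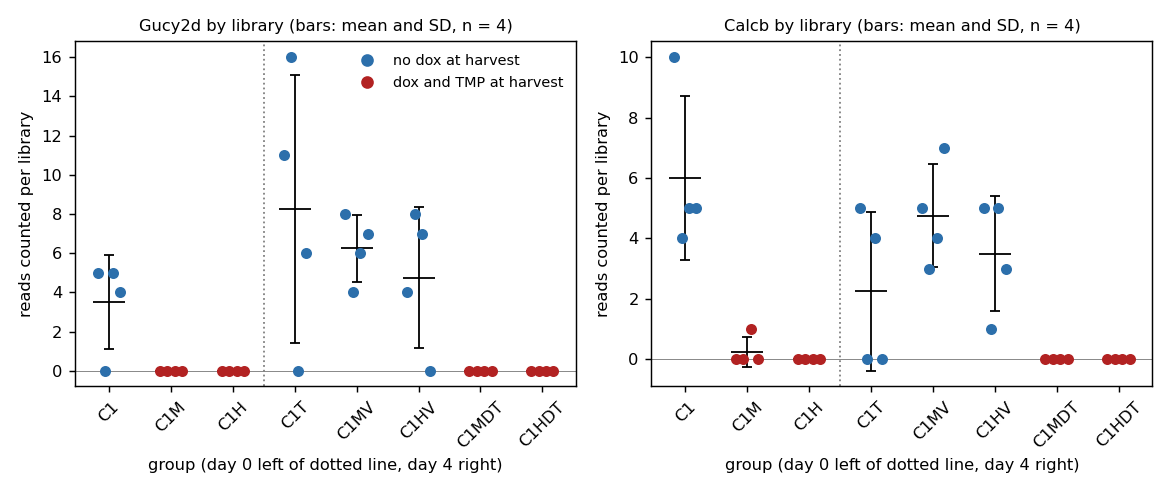
Reads counted per library for Gucy2d (left) and Calcb (right), by group, with day 0 left of the dotted line and day 4 right of it; red marks libraries with dox and TMP at harvest, blue those without dox, and bars give the mean and SD of 4. Among the 32 red points of both panels, 1 lies above 0, a Calcb read in C1M.

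Ngfr, the neurotrophin receptor, was well counted in every library and had another pattern. At day 0 it read 36.1, 29.99, 32.7 and 31.6 CPM in C1, 45.8, 34.7, 31.3 and 37.1 CPM in C1M, and 29.3, 31.4, 28.6 and 31.1 CPM in C1H. The 3 groups overlapped, and C1M, with dox and TMP, had the highest mean of all 8 groups. At day 4 it read 33.1, 29.1, 21.0 and 27.4 CPM in C1T, 36.3, 28.5, 32.3 and 37.8 in C1MV and 28.4, 27.3, 36.98 and 28.6 in C1HV. With inducers kept on it read 15.6, 12.2, 13.4 and 13.4 CPM in C1MDT and 19.4, 12.9, 15.9 and 10.5 CPM in C1HDT. All 8 of these libraries lay below the lowest of the 12 other libraries of day 4, as was the case for 0.864% of tested genes.

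As a description, the log2 fold change of Ngfr was 0.18 (SE 0.15) in C1M against C1 and -0.12 (SE 0.16) in C1H against C1. At day 4 it was -1.30 (SE 0.17) in C1MDT against C1MV, -1.05 (SE 0.18) in C1HDT against C1HV, -1.04 (SE 0.18) in C1MDT against C1T and -0.91 (SE 0.18) in C1HDT against C1T, and the last pair shares the C1T libraries. The means in C1MDT (13.6 ± 1.42 CPM, SD, n = 4) and C1HDT (14.7 ± 3.82) were 40.4% and 48.4% of those in C1MV (33.7 ± 4.18) and C1HV (30.3 ± 4.48).

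Markers of other cell states also differed between the groups of day 4, some sets lower and others higher with dox and TMP. The 8 naive ESC markers, all detected in every library, summed to 323 to 392 CPM in C1MDT and 326 to 422 in C1HDT, against 661 to 799 in C1MV, 620 to 672 in C1HV and 548 to 659 in C1T. Of these, 5 were lower and 0 higher in C1MDT against C1MV, and 6 were lower and 1 higher in C1HDT against C1HV (edgeR, Benjamini-Hochberg adjusted p under 0.05), where 5.98% and 6.89% of all genes tested were lower and 6.64% and 9.06% higher. Against C1T, 6 of the 8 were lower and 0 higher in both C1MDT and C1HDT. At day 0, 5 of the 8 were lower and 1 higher in C1M against C1, where 12% of all genes were lower and 14.3% higher and the Ngfr levels overlapped. The 6 neuron markers, of which Dcx had 12 reads in all, summed to 246 to 291 CPM over C1MDT and C1HDT and to 300 to 400 over the other groups of day 4. Of the 5 neuron markers tested, 2 were lower in C1MDT against C1MV and 1 in C1HDT against C1HV, with 0 higher. Against C1T, 2 were lower and 0 higher in C1MDT, and 2 lower and 1 higher in C1HDT. The 7 neural crest and Schwann cell markers, cells that Ngfr is known for, summed to 13.8 to 23.6 CPM in C1MV, C1HV, C1MDT and C1HDT and to 32.5 to 41.9 CPM in C1T. None of the 5 tested was called in C1MDT against C1MV or C1HDT against C1HV, and 3 were lower and 0 higher in both C1MDT and C1HDT against C1T, where 16.5% and 16.1% of all genes were lower and 16.9% and 17.4% higher. Their defining gene Sox10 had 58 reads over all libraries. The 6 post-implantation epiblast markers summed to 1080 to 1230 CPM in C1MDT and 1109 to 1236 in C1HDT, against 680 to 777 in C1MV, 744 to 786 in C1HV and 1389 to 1663 in C1T. Of these, 4 were higher in C1MDT against C1MV and 5 in C1HDT against C1HV, with 0 lower, while against C1T 2 and 3 were lower and 0 higher. The 6 neural progenitor markers summed to 206 to 215 CPM in C1MDT and 170 to 201 in C1HDT, against 111 to 133 in C1MV, 116 to 137 in C1HV and 128 to 157 in C1T, with 2 higher and 0 lower in each of C1MDT against C1MV and C1HDT against C1HV. In both C1MDT and C1HDT against C1T, 3 of them were higher and 1 lower. The 5 endoderm markers summed to 118 to 130 CPM in C1MDT and 118 to 137 in C1HDT, against 77.4 to 107 in C1MV, 87.7 to 100.1 in C1HV and 3.26 to 11.2 in C1T, with 2 higher and 0 lower in each of C1MDT against C1MV and C1HDT against C1HV and all 5 higher in both against C1T. The part of these markers in the levels of Ngfr was not tested.

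The first question is whether the genes differed between the sorted fractions once inducers were present. C1H had more Ctnnb1 RNA than C1M without overlap, as given above, whereas at day 4 Ctnnb1 overlapped between C1MDT (25.4 to 34.05 CPM) and C1HDT (28.2 to 36.3 CPM). Lrrc55 differed by a log2 fold change of 0.07 between C1H and C1M (SE 0.59, 95% interval -1.09 to 1.23, edgeR quasi-likelihood test with Benjamini-Hochberg adjusted p = 0.985), an interval that runs from 0.469-fold to 2.35-fold. Ngfr differed by -0.30 (SE 0.15, interval -0.59 to -0.01, edgeR adjusted p = 0.377). None of the 2 members with an estimate passed, where 1.77% of genes tested did, and Gucy2d and Calcb were at the floor in both groups. At day 4 Ngfr differed by 0.13 between C1HDT and C1MDT (SE 0.19, interval -0.25 to 0.51, edgeR adjusted p = 0.989). In that contrast 0 of all 15280 genes passed in edgeR or in DESeq2, and 814 had an unadjusted p under 0.05 in edgeR.

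**Figure D3:**
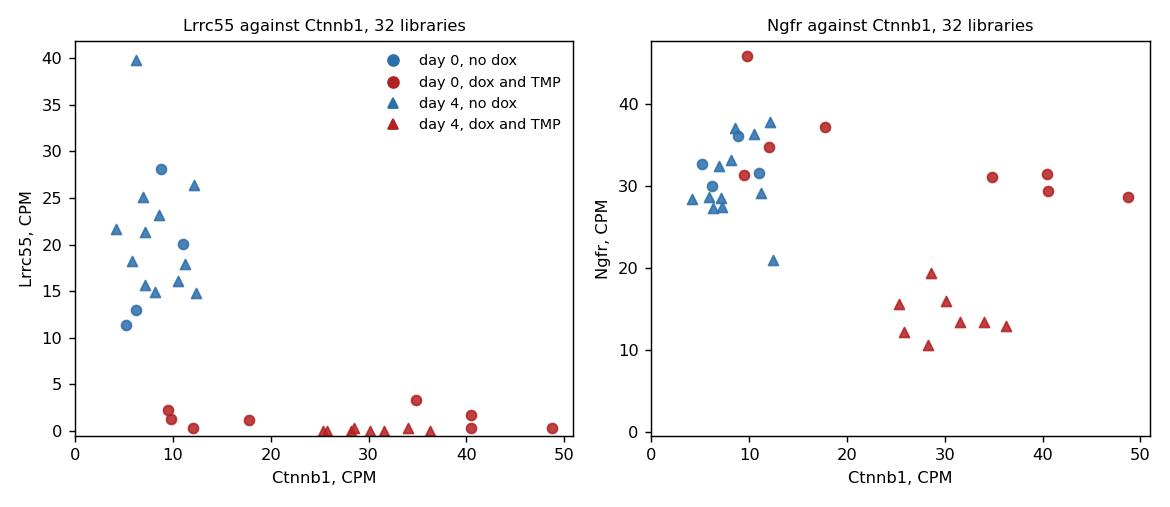
Level of Lrrc55 (left) and Ngfr (right) against the level of Ctnnb1, both in CPM, one point per library; circles are day 0, triangles day 4, red is with dox and TMP at harvest and blue without dox. The C1M libraries, with Ctnnb1 at 9.45 to 17.7 CPM, partly share the Ctnnb1 range of the blue points, and their Lrrc55 lies at 0.355 to 2.28 CPM.

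The second question is where the genes stood 4 days after withdrawal, compared with cells that had never received dox. Here C1MV and C1HV are set against the same C1T libraries. For C1MV the log2 fold change was 0.47 for Lrrc55 (SE 0.24, edgeR adjusted p = 0.136), -0.52 for Gucy2d (SE 0.59, adjusted p = 0.558), 0.92 for Calcb (SE 0.73, adjusted p = 0.371) and 0.27 for Ngfr (SE 0.16, adjusted p = 0.220). None of the 4 passed, where 30.2% of tested genes did. For C1HV, Lrrc55 rose by 0.70 (SE 0.24, interval 0.23 to 1.17, edgeR adjusted p = 0.0198), and Gucy2d (-0.68, SE 0.62), Calcb (0.71, SE 0.76) and Ngfr (0.15, SE 0.17) did not pass. One of 4 is close to the 28% of all genes that passed in that contrast, and the call for Lrrc55 rested on C1HV replicate 2 at 39.8 CPM, without which the change was 0.42 (adjusted p = 0.247).

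Withdrawal thus left no member below C1T by the test, but the intervals were wide for the genes with few reads. For Gucy2d the interval of C1HV against C1T ran from 0.269-fold to 1.44-fold, and for Calcb from 0.580-fold to 4.60-fold. For Ngfr it ran from 0.880-fold to 1.39-fold. Between the withdrawn groups, C1HV against C1MV, the log2 fold changes were 0.23 for Lrrc55 (SE 0.23), -0.16 for Gucy2d (SE 0.65), -0.22 for Calcb (SE 0.68) and -0.12 for Ngfr (SE 0.16), with adjusted p from 0.870 to 0.977. One gene of all those tested, or 0.00654%, passed there.

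The third question is what differentiation did within each dox state. Without dox, C1T against C1, Lrrc55 differed by -0.23 (SE 0.25, edgeR adjusted p = 0.473) and Ngfr by -0.24 (SE 0.16, adjusted p = 0.226). Gucy2d had a log2 fold change of 1.22 (SE 0.65, adjusted p = 0.114) and Calcb of -1.35 (SE 0.70, adjusted p = 0.101). None of the 4 passed, where 49.2% of genes tested did. Both low genes turned on single C1T libraries: without C1T replicate 3, which had no Gucy2d read, Gucy2d reached 1.63 (adjusted p = 0.0220), and without C1T replicate 1, which had 5 of the 9 Calcb reads, Calcb reached -2.05 (adjusted p = 0.0395).

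With inducers present on both days, the values are a description. Lrrc55 had 14 reads in C1M and 1 in C1MDT, a ratio of 14.8 (95% exact interval 2.26 to 627). It had 15 reads in C1H and 1 in C1HDT, a ratio of 15.0 (2.31 to 631). Leaving out the library with that read puts the day 4 group at 0, so these ratios are set by 1 read each. Ngfr had a log2 fold change of -1.45 in C1MDT against C1M (SE 0.17) and of -1.03 in C1HDT against C1H (SE 0.17). Of all genes tested 27.9% and 29.4% were lower at day 4 in these contrasts, from which nothing is read for the 4 genes, and Gucy2d and Calcb were at the floor.

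The change from day 0 to day 4 with inducers minus the change without, taken over both sorted fractions, sets groups with dox against groups without and so draws on the values that chose the genes. As a description it was -3.03 on the log2 scale for Lrrc55 (SE 0.75) and -0.999 for Ngfr (SE 0.20). In this direction 15.2% of all genes tested passed, and nothing is read from that for the 4 genes.

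**Figure D4:**
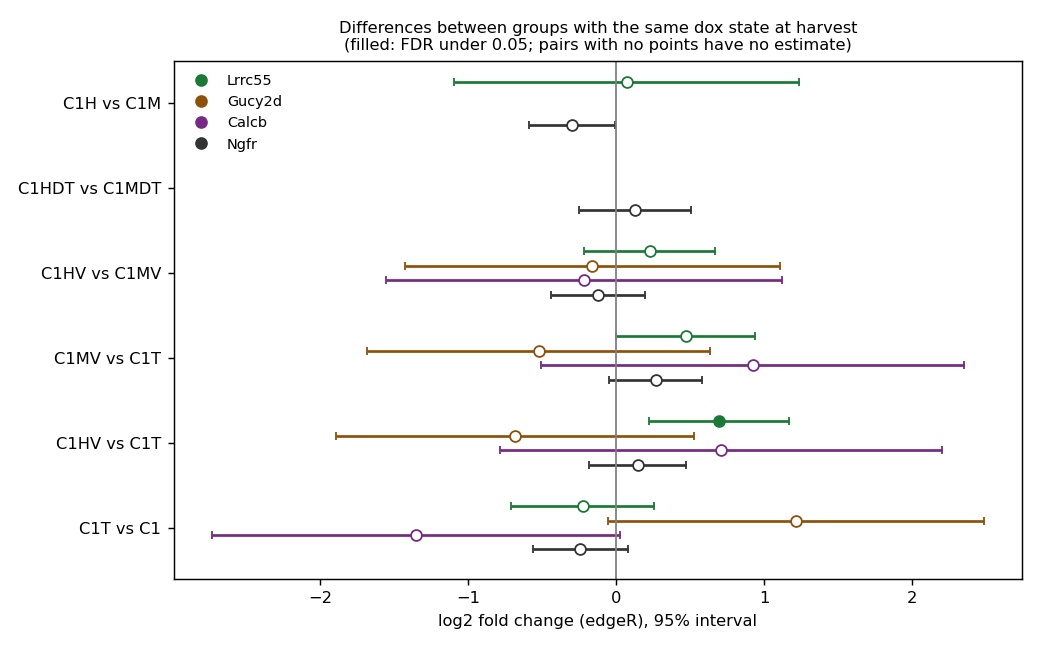
Log2 fold changes of the 4 genes with 95% intervals in 6 contrasts between groups of the same dox state at harvest; filled points passed an adjusted p of 0.05 in edgeR, and genes at the floor in both groups have no point. The single filled point is Lrrc55 in C1HV against C1T, at 0.70.

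Other genes of the same families were counted from lists that leave out the 4 genes themselves. Of 7 other BK channel genes (the pore subunit Kcnma1 and auxiliary subunits), 4 passed the filter, and 2 of them were higher and 0 lower in both C1M and C1H against C1, where 14.3% and 13.8% of all genes were higher and 12% and 12.1% lower; the median log2 fold change of the 4 was 1.90 in C1M against C1, beside 0.06 for all genes tested. Kcnmb4, a β subunit of the same channel, rose from 1.14 ± 1.02 CPM in C1 to 5.39 ± 1.43 in C1M (SD, n = 4, edgeR adjusted p = 4.1e-04). Kcnmb2, another β subunit, had 0 reads in C1, 17 in C1M and 10 in C1H. None of the 4 passed in C1MDT against C1MV or C1HDT against C1HV, and Lrrc26, a relative of Lrrc55, had no read in any library. Against C1T none passed in C1MDT, and 1 was higher in C1HDT, where 17.4% of all genes were. This was the auxiliary subunit Lrrc38, with 14 reads in C1HDT and 1 in C1T (log2 fold change 2.99, SE 1.16, edgeR adjusted p = 0.0344).

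Among 14 other genes of guanylyl cyclases and their ligands and activators, 11 were tested. In C1M against C1, 2 were higher (Guca1a and Npr3) and 1 lower (Npr2), and in C1H against C1, 3 were higher (these and Gucy2g) and 1 lower (Npr1), where 14.3% and 13.8% of all genes were higher and 12% and 12.1% lower. The medians were 0.58 and 0.10 beside 0.06 and 0.04 for all genes. Guca1a, an activator of retinal guanylyl cyclases, rose from 4.38 ± 1.97 CPM in C1 to 22.8 ± 2.35 in C1M (edgeR adjusted p = 4.4e-13). Npr3, the natriuretic peptide clearance receptor, rose by 1.08 on the log2 scale there (SE 0.29, edgeR adjusted p = 0.00252). In C1MDT against C1MV 1 of the 11 was lower (Npr1), where 5.98% of all genes were, and in C1HDT against C1HV none passed. Against C1T, 1 was higher and 2 lower in C1MDT, and 1 higher and 1 lower in C1HDT. Of all genes 16.9% and 17.4% were higher and 16.5% and 16.1% lower there. Npr3 was among the lower genes in C1MDT (log2 fold change -1.89, SE 0.78, edgeR adjusted p = 0.0495), with 4 reads against 12 in C1T. Npr1, Npr2 and Gucy2g were named after their values were seen. Gucy2f and Guca2b had no read.

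Calca, the closest relative of Calcb, was higher with dox and TMP in C1M, C1H and C1HDT. The gene, which encodes calcitonin and α-CGRP, lies 82286 bases before Calcb on chromosome 7, from 114631478 to 114636357 on the minus strand. It read 0.496 ± 0.0621 CPM in C1, 3.57 ± 0.612 in C1M and 3.99 ± 1.48 in C1H (SD, n = 4), a rise of 2.74 on the log2 scale in C1M (SE 0.58, edgeR adjusted p = 7.5e-05) and of 2.88 in C1H (SE 0.56, adjusted p = 1.7e-05). At day 4 it read 25.3 ± 4.27 CPM in C1T and 42.1 ± 8.14 in C1HDT, a rise of 0.76 (SE 0.16, edgeR adjusted p = 6.8e-05), while Calcb had no read in C1HDT. Without dox, Calca rose from day 0 to day 4 by 5.53 (SE 0.39, edgeR adjusted p = 5.9e-28), where Calcb was at -1.35 and did not pass. The 10 other genes of the CGRP list (peptides, receptors and their accessory proteins) included 7 that were tested, with 3 higher (Calca, Ramp3 and Adm) and 0 lower in C1M against C1, 1 higher (Ramp2) and 0 lower in C1MDT against C1MV, and 2 higher (Ramp2 and Calca) and 0 lower in C1HDT against C1HV. Of all genes 14.3%, 6.64% and 9.06% were higher in these contrasts, and the medians of the 7 were -0.0010, -0.0078 and 0.35 on the log2 scale, beside 0.06, -0.02 and 0.00 for all genes. Against C1T, 2 were higher in C1MDT (Ramp2 and Ramp3) and 3 in C1HDT (these and Calca), and Crcp, named after its values were seen, was lower in both, where 16.9% and 17.4% of all genes were higher and 16.5% and 16.1% lower. Ramp2, an accessory protein of the receptor, rose from 12.5 ± 2.84 CPM in C1MV to 27.6 ± 1.28 in C1MDT (edgeR adjusted p = 1.1e-05). Iapp had no read.

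Among 20 other genes of neurotrophin signaling, 16 were tested, and their counts were mixed: 1 higher (Ntrk2) and 2 lower (Maged1 and Arhgdia) in C1M against C1, where 14.3% of all genes were higher and 12% lower, and 2 higher (Ntrk2 and Bdnf) and 3 lower (Maged1, Arhgdia and Ntf5) in C1H against C1, where 13.8% were higher and 12.1% lower. At day 4 there were 2 higher (Maged1 and Arhgdia) and 1 lower (Kidins220) in both C1MDT against C1MV and C1HDT against C1HV, where 6.64% and 9.06% of all genes were higher and 5.98% and 6.89% lower. Medians were -0.03 and 0.09 in the latter contrasts beside -0.02 and 0.00 for all genes. Against C1T, 3 were higher and 1 lower in C1MDT, and 3 higher and 2 lower in C1HDT, where 16.9% and 17.4% of all genes were higher and 16.5% and 16.1% lower. Bdnf was among the lower genes in both, with log2 fold changes of -1.28 (SE 0.32, edgeR adjusted p = 5.3e-04) and -1.60 (SE 0.33, adjusted p = 3.1e-05). It was also lower in the withdrawn groups C1MV (-1.51) and C1HV (-1.76) against C1T. Ntrk2, the Trk receptor for BDNF, rose by 2.17 in C1M (SE 0.66, edgeR adjusted p = 0.00746) and by 2.73 in C1H (SE 0.62, adjusted p = 2.5e-04) against C1. With inducers present on both days it fell by 2.02 from C1M to C1MDT (SE 0.60, edgeR adjusted p = 0.00248) and fell by 2.22 from C1H to C1HDT (SE 0.54, adjusted p = 2.2e-04). Of all genes 27.9% and 29.4% were lower in these contrasts. After withdrawal Ntrk2 was also low, at 0.928 ± 0.621 CPM in C1MV and 0.322 ± 0.645 in C1HV. With inducers kept on it stood at 0.815 ± 0.539 in C1MDT and 1.12 ± 0.584 in C1HDT (SD, n = 4). Without dox it rose by 1.67 from C1 to C1T (SE 0.73, edgeR adjusted p = 0.0476). Bdnf, Ntf5, Maged1, Arhgdia and Kidins220 were named after their values were seen.

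The neighbors on the chromosomes give a further comparison. Lrrc55 is overlapped by the antisense genes Gm13713 and Gm13716, which had 1 and 0 reads in all. The strand setting of the counting is not given in the sources used here, so reads from both strands cannot be told apart there. On one side of Lrrc55, Aplnr had 5 reads in all, and Tnks1bp1 averaged 16.6 ± 3.79 CPM in C1HDT against 30.9 ± 6.79 in C1HV (SD, n = 4), without overlap, and 23.6 ± 5.48 in C1MDT against 29.3 ± 10.3 in C1MV, with overlap. Next to Gucy2d, Tsku had its highest group mean in C1MDT (8.18 ± 2.12 CPM) and Lrrc32 had 23 reads in all. Next to Calcb, beside Calca, Insc had 30 reads in all and Cyp2r1 had 21.

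The nearest genes on either side of Ngfr had few reads. Nxph3, 54248 bases away, averaged 0.837 ± 0.676 CPM in C1MDT against 2.43 ± 0.605 in C1MV (SD, n = 4), without overlap, and 0.909 ± 0.622 in C1HDT against 1.28 ± 0.917 in C1HV, with overlap. Gm11528, 34925 bases away, had 0 reads in C1MDT and C1HDT, 7 in C1MV and 2 in C1HV. Farther out, Spop averaged 47.5 ± 2.75 CPM in C1MDT and 54.3 ± 11.5 in C1MV, and Phb 97.5 ± 4.88 and 93.7 ± 10.3. These differences were not tested.

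Likeness of pattern was measured by Pearson r of log2 CPM over the 32 libraries, which share groups and scaling, and is given as a description. The members were chosen for a shared pattern, so nothing is read from r between them. The genes most like Lrrc55 were Enah (r = 0.93), an actin regulator, Crebrf (0.91), a regulator of the stress factor CREB3, Sntg1 (0.85), a syntrophin, Kif11 (0.83), a mitotic kinesin, and Mtss1 (0.82). Crebrf read 25.5 to 41.6 CPM with dox and TMP and 48.7 to 72.7 without, and Sntg1 read 0 to 0.733 and 1.12 to 5.45 CPM. Kif11 overlapped between the states, at 59.6 to 77.6 and 71.3 to 113 CPM.

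The genes most like Gucy2d were Sall3 (0.81), Lrrc55 itself (0.79), Crebrf (0.78), Enah (0.77) and Lcat (0.77). Those most like Calcb were Galnt13 (0.81), a glycosyltransferase that starts mucin-type glycans, Crebrf (0.80), Lrrc55 (0.80), Dse (0.78) and Tenm4 (0.77). Galnt13 averaged 4.78 ± 1.27 CPM in C1 and 0.0815 ± 0.163 in C1M (SD, n = 4), and had 9 reads in all libraries with dox and TMP against 87 in those without. Lrrc55 and Crebrf thus stood in the lists of both low-count genes, and r between Gucy2d and Calcb themselves was 0.57.

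Ngfr shared none of these. Its nearest genes were Pecam1 (0.89), Nr0b1 (0.85), Ncam1 (0.85), Mt2 (0.84) and Ncoa1 (0.82), and its r with Lrrc55, Gucy2d and Calcb was 0.61, 0.44 and 0.46. Under Spearman's rho most of these nearest genes were replaced by others, as were most of those of Gucy2d. Pecam1, an adhesion molecule that ESCs carry, read 59.4 ± 6.99 CPM in C1M and 22.0 ± 2.59 in C1MDT, against 47.5 ± 12.2 in C1MV (SD, n = 4). Nr0b1, one of the naive ESC markers above, read 85.2 ± 17.5, 6.57 ± 1.05 and 32.4 ± 9.07 CPM in the same groups. Both were high at day 0 with or without dox and lowest at day 4 with dox and TMP, as Ngfr was.

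**Figure D5:**
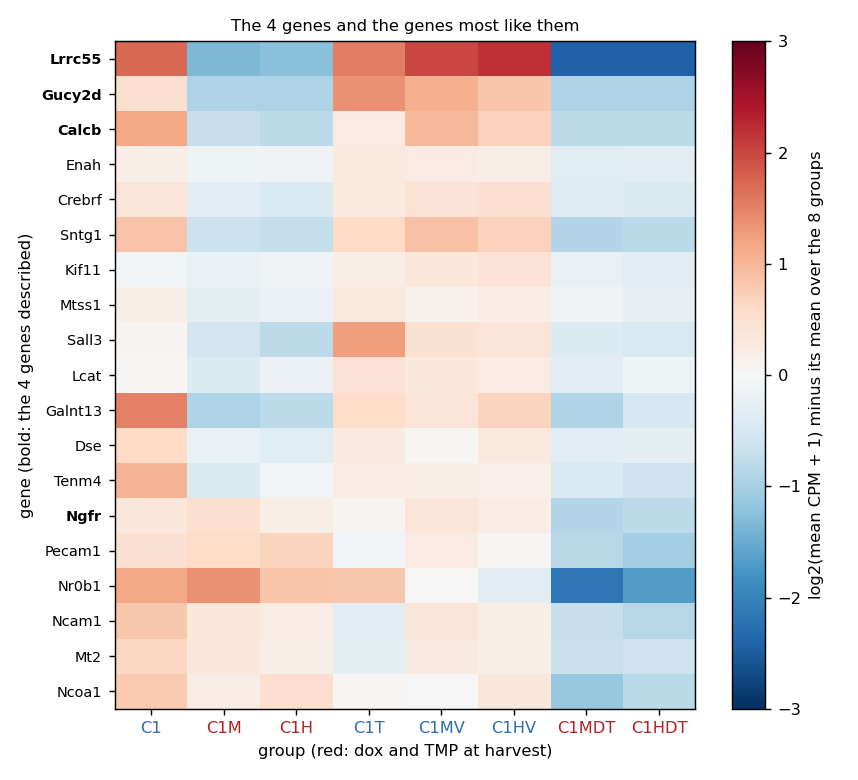
Group means of the 4 genes (bold) and of the genes most like them, as log2(mean CPM + 1) minus the gene's mean over the 8 groups; red group names had dox and TMP at harvest. Lrrc55, Gucy2d and Calcb are blue in all 4 red groups, and Ngfr and the 5 genes under it are blue in C1MDT and C1HDT and not in C1M or C1H.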

How the data were processed

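The 32 QuantSeq libraries were deposited as counts. Per the study's methods, the authors used bbduk for trimming, STAR for alignment (mm10) and htseq-count for unique reads per gene (Ensembl gene models); the strand setting is not given in the sources used here. The deposited counts are whole reads without normalization. Reads outside genes made up 10.1% to 23.1% of unique reads and stayed out of library sizes, as did ambiguous reads (0.480% to 0.622%). Gene names came from the GENCODE annotation, which named 31011 of the 31053 genes and left out 42. No 2 libraries were identical.

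The main test was the quasi-likelihood F test of edgeR 4.0.16 in R 4.3.3 (TMM scaling, robust dispersion), in one fit of 8 group means. A gene entered when 4 or more libraries had 1 CPM or more, with Benjamini-Hochberg adjustment over all 15280 and a threshold of 0.05. Standard errors were derived from the F statistic, and 95% intervals are normal. All 4 members passed the filter, Gucy2d and Calcb through the groups without dox alone. Groups whose libraries all held at most 3 counts were taken as at the floor; folds against 0 used 3 counts over the group, and ratios against 1 to 3 counts have exact binomial intervals. Log2 CPM used a prior count of 2. The fit was tested on simulated data with 200 changed genes.

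The members and all gene lists were chosen with earlier results of these data known. Named genes were the members, at most 4 genes per family list that passed in a within-state contrast, genes without any read, the 5 most alike genes per member, neighbors and Ctnnb1. Comparing the family and marker lists between dox states was added after the data were seen. Labels number biological replicates and do not say how cultures were separated, and a figure legend of the study places the samples of a group in one experiment. The p-values therefore measure the spread between these samples and do not cover variation between experiments. Of the remaining marker lists, neural progenitor genes summed to 26.5 to 39.0 CPM and endoderm genes to 6.22 to 21.3 at day 0, and fibroblast genes to 11.3 to 21.6 at day 0 and 7.53 to 21.5 at day 4. The contrasts of day by inducers and of day 4 against day 0 with inducers, planned as tests, are given for the members as a description, since they use the levels that chose them. Alternatives were RLE size factors, library size only, DESeq2 1.42.0, no filter, CPM of at least 1 in all libraries, a replicate block, a fit of the compared groups alone, and leaving out single libraries.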

Additional observations from a re-analysis of the deposited data

Results flagged for a closer look

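Within groups of 4, single libraries stood apart for Lrrc55 in C1MDT (0.344 CPM against 0 in the other libraries), for Lrrc55 in C1HDT (0.340 CPM against 0) and for Calcb in C1M (0.326 CPM against 0), each of which is 1 read. Ngfr in C1HV had 1 library at 36.98 CPM above the other 3 at 27.3 to 28.6 CPM. Such a gap is passed by chance in about 1 in 20 groups of continuous values, a rate that does not apply to groups of 0, 0, 0 and 1 read, where any single read stands apart, and 32 combinations of gene and group were examined.

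The change from day 0 to day 4 with dox and TMP minus the change without dox was -3.03 on the log2 scale for Lrrc55 and -0.999 for Ngfr. This difference draws on the levels with and without dox that chose the genes, so it is a description and supports nothing.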

How the results depend on the processing

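Over all alternatives, 327 recomputed counts and 397 recomputed gene values kept their direction and their side of the threshold, against 33 counts that moved by over 1.5 times and 14 gene values that changed. Fitting only the groups compared gave 601 genes in C1H against C1M (271 in the fit of all groups), 1 in C1HDT against C1MDT (0), 0 in C1HV against C1MV (1) and 1 member in C1T against C1 (0), which was Gucy2d (1.21, adjusted p = 0.0457). With no filter, 3 genes passed in C1HV against C1MV and 11 in the test of sorted fraction by inducers at day 4 (0 in edgeR, 1285 at an unadjusted p under 0.05), where DESeq2 gave 20. Requiring CPM of at least 1 in all libraries removed Lrrc55, Gucy2d and Calcb, so the members called became 0 in C1HV against C1T. The totals above also cover the contrasts that use the levels that chose the genes, and nothing is read from those for the members. Of the 5 most alike genes, Gucy2d shared 3 under library size only and 1 under Spearman's rho, Calcb 3 under Spearman's rho and Ngfr 1 under Spearman's rho.

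Leaving out each library in turn gave 118 to 232 genes in C1H against C1M, 0 to 1 in C1HDT against C1MDT, 0 to 8 in C1HV against C1MV and 0 to 21 for sorted fraction by inducers, and 0 to 1 members in both C1HV against C1T and C1T against C1. Values that changed sign, none of them past the threshold, were Lrrc55 in C1H against C1M (-0.64 to 0.55), in C1HV against C1MV (-0.0498 to 0.35) and in C1T against C1 (-0.39 to 0.0754), Ngfr in C1HDT against C1MDT (-0.0726 to 0.26), and in C1HV against C1MV Gucy2d (-0.58 to 0.19) and Calcb (-0.46 to 0.27). The cause was not tested.

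Replicate numbers recur in every group, but libraries sharing one did not deviate together (mean r -0.0016, against 0.00054 for the others, range over pairs -0.042 to 0.028). With the replicate number as a block, C1H against C1M had 262 genes and C1HV against C1T 4209, and Lrrc55 in the latter kept its call (0.70, adjusted p = 0.0246); no call on a member changed. Depth limits Gucy2d and Calcb most: at 0.837 to 2.14 CPM for 3 counts, differences among the induced groups were not detectable.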
